A study of Sus scrofa with 9 samples.

Results

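The cytosolic ribosomal protein genes were described in embryonic longissimus dorsi, a back muscle, of Tibetan, Wujin and Large White pigs, with 3 libraries of each breed. They were taken by symbol, as names that begin with RPL or RPS followed by a number, with the stalk proteins RPLP1 and RPLP2 included and the kinases of ribosomal protein S6 left out. This gave 27 of the 19643 entries of the table, each with a single entry, and all 27 averaged at least 1 FPKM, the filter used for testing. Tibetan and Wujin are labelled as Chinese indigenous breeds and Large White as an introduced one. No treatment, genotype, sex or day of gestation is given, all libraries share the same embryonic stage label, and no label tells if a breed's libraries are from different animals. The p-values below thus cover the spread of these samples alone, which may be technical. A pig gene table from RefSeq (assembly Sscrofa11.1) holds 83 protein-coding symbols of this form. The 56 others, RPL3, RPL3L, RPS6, RPLP0 and RPS27A among them, were not matched to an entry and were not analysed here.

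The ribosome translates messenger RNA into protein. Its small subunit holds the messenger and reads it, and its large subunit joins the amino acids. Each subunit is ribosomal RNA bound by many small proteins, most of them in equal number, and their messengers carry a terminal oligopyrimidine (TOP) tract through which growth signals, mTOR among them, control their translation together. Growing muscle fibres add ribosomes as they enlarge, and dividing myoblasts need them as well. Many vertebrate ribosomal protein genes have processed pseudogenes, so reads can be split between near-identical copies, and the levels below carry that uncertainty.

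The values are FPKM, fragments scaled to transcript length and to the mapped fragments of the library, so they can be compared between genes. They depend on what else a library holds. The 10 highest entries of each library made up 32.6% to 40.8% of total FPKM in Tibetan libraries, while the range was 22.3% to 22.8% for Wujin and 18.8% to 25.0% for Large White. The number of fragments is unknown, but steps between low values placed every library at 1 to 1.22 times the depth of Large White 1. Each result is therefore given as deposited and after median-ratio scaling, in which a library is divided by its median ratio to the geometric mean of the libraries over 14562 entries above 0 in every library. The divisors ranged over 0.631 to 0.718 for Tibetan, 0.992 to 1.23 for Wujin and 1.31 to 1.37 for Large White libraries. Muscle markers were abundant in all libraries: the 7 of 11 listed markers that were matched had sums of 27342 to 74687 FPKM in Tibetan libraries, while Wujin ranged over 19298 to 22866 FPKM and Large White over 11268 to 14747 FPKM. Other cell types moved with breed as well. The 6 of 7 matched connective tissue markers had sums of 319 to 356 FPKM in Tibetan libraries, while Wujin ranged over 3059 to 5569 FPKM and Large White over 5299 to 5935 FPKM, and the 4 of 6 matched red blood cell markers to 149 to 579, 1469 to 3838 and 1931 to 3744 FPKM in the same order, with none of these markers at 0 in every library. Without overlap under either scaling, sums of muscle, nerve, heart and fat markers were higher in Tibetan than in Large White libraries. Sums of connective tissue, red blood cell and cartilage markers were lower. The 7 muscle markers did not move as one. As deposited, 4 were called higher and 1 lower, by the test and beside the shares of all entries given below. After scaling 5 were called higher and 1 lower. Nerve rested on 2 of 4 listed markers, heart on 1 of 3 (MYH6) and fat on 1 of 4 (PLIN1). As deposited, PLIN1 had 0.367 to 2.18 FPKM in Tibetan and 0 FPKM in Large White libraries. Sums of blood vessel markers turned with the scaling, at 53.3 to 62.6 FPKM in Tibetan and 96.0 to 103 FPKM in Large White libraries as deposited, and 82.5 to 90.2 against 70.0 to 77.0 after median-ratio scaling. Liver markers were lower as deposited and overlapped after scaling, and leukocyte markers overlapped under both. Skin markers, 2 of 4 listed, overlapped as deposited and were higher after scaling, with scaled sums of at most 0.612. Their part in the results below was not tested. In bulk tissue, fewer cells of a type and less RNA per cell cannot be told apart.

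As deposited, ribosomal protein genes took a smaller share of Tibetan libraries. The 27 genes together made up 2.42%, 3.11% and 1.79% of total FPKM in Tibetan 1, 2 and 3. Their share was 5.52%, 4.69% and 5.07% of the Wujin libraries, and 5.66%, 5.17% and 5.31% of the Large White libraries. The Tibetan shares lay below all 6 others, and the Wujin and Large White shares overlapped. After median-ratio scaling the summed FPKM was 20740, 29152 and 17440 in Tibetan libraries, 28080, 21086 and 22716 in Wujin libraries and 24822, 22720 and 20957 in Large White libraries, and the 3 breeds overlapped. A pair of Wujin libraries share a column header and are called Wujin a and Wujin b, listed after Wujin 1.

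**Figure D1:**
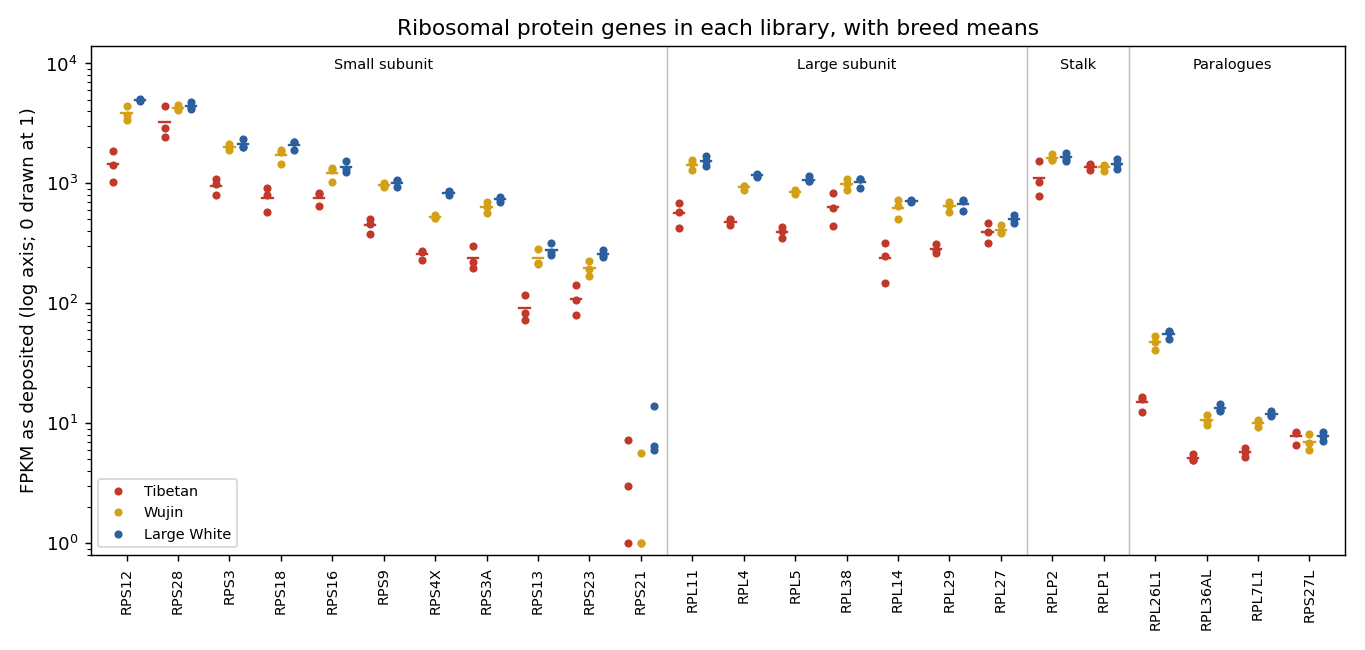
FPKM as deposited of 24 of the 27 ribosomal protein genes (log axis) in the 3 libraries of each breed, as points, with the breed mean as a bar. Genes are grouped by role and ordered by their Large White mean. RPS21, with 3 values listed at 0 that are drawn at 1, has no bar; RPLP1 and RPS27L are at like levels in all breeds, while RPS12, RPS4X and RPL26L1 are lower in Tibetan libraries.

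Levels differed widely between members. Without RPS21, the highest member stood 441 to 884 times above the lowest in Tibetan libraries, while the range was 555 to 747 times for Wujin and 598 to 678 times for Large White. The low end was made up of paralogues of other ribosomal protein genes, so this span does not describe the core proteins. Without the paralogues and RPS21, the lowest Large White mean was that of RPS23, at 256 ± 18.1 FPKM. In Large White libraries RPS12, a protein of the beak of the small subunit, led with 4951 ± 100.2 FPKM (SD, n = 3), ahead of RPS28, which lies near the exit of the messenger channel, with 4435 ± 325 FPKM. RPS3, at the entry of that channel, had 2113 ± 195 FPKM and RPS18, in the head of the small subunit, 2106 ± 195 FPKM, which do not differ beyond their spread. In Tibetan libraries the order changed. RPS28 led with 3237 ± 1018 FPKM, followed by RPS12 with 1441 ± 420.0, RPLP1 with 1380.2 ± 83.7 and RPLP2 with 1114 ± 376 FPKM, and the last 3 did not differ beyond their spread.

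Of the 27 genes, 24 were called lower in Tibetan than in Large White libraries, 0 were called higher and 3 were not called, as deposited (limma, Benjamini-Hochberg adjusted p under 0.05 over all 13106 entries tested). No member was higher at an unadjusted p under 0.05 either. Among all entries tested, 63.2% were called lower and 13% higher, so most of the table moved the same way. The median log2 fold change was -1.21 for the 27 genes and -0.77 for all entries. In 23 of the 27 genes every Tibetan value lay below every Large White value, which held for 66.5% of all entries. After median-ratio scaling, which brought the median of all entries to -0.011, only 6 members were called lower and 3 higher, with a member median of -0.27, against 33% of all entries lower and 32.4% higher. Leaving out libraries moved the 6: it became 11 without Tibetan 2, 3 without Tibetan 3, and 2 without Tibetan 1 or either of Large White 1 and Large White 2. The members that kept their call whichever of the 9 libraries was left out were RPL26L1 and RPS4X, lower, and RPLP1 and RPS27L, higher. The member shares after scaling were 22.2% lower and 11.1% higher.

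**Figure D2:**
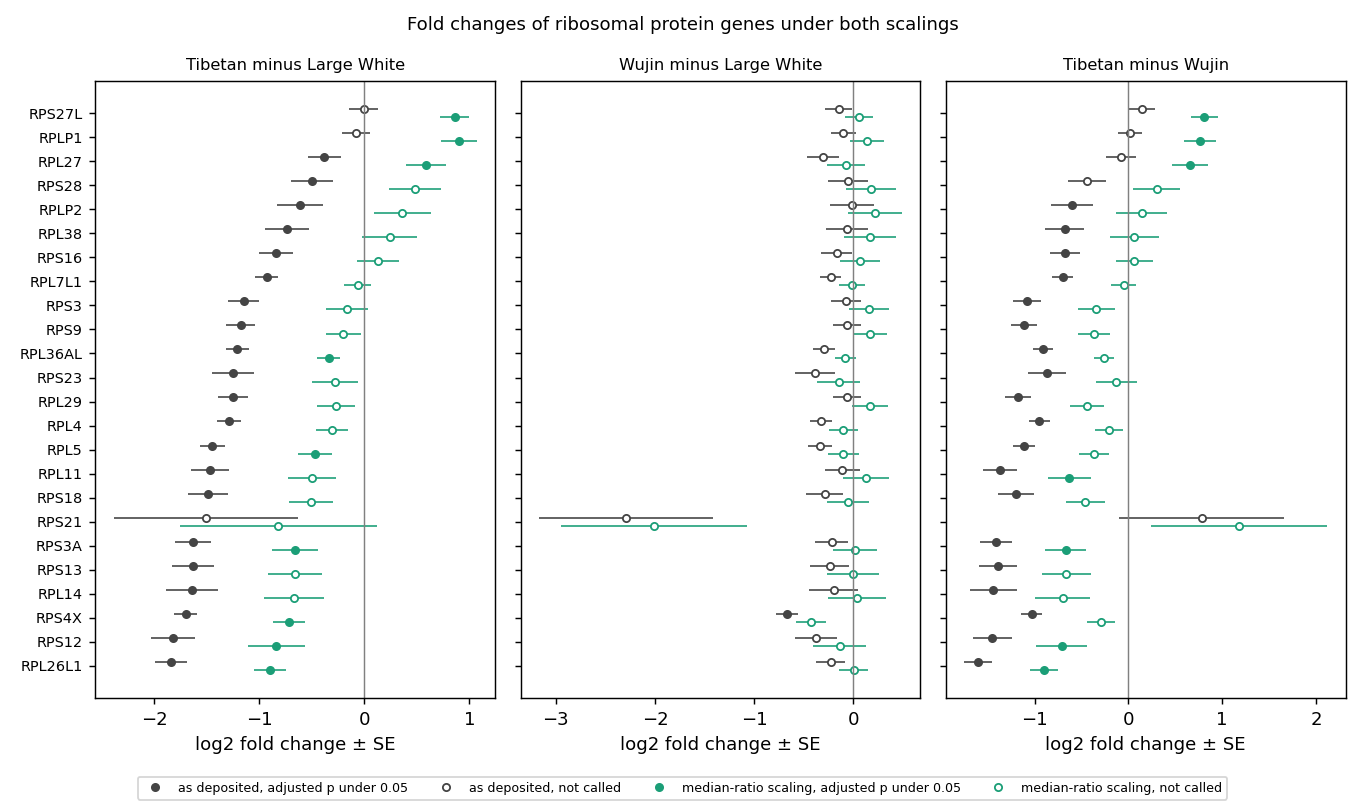
Log2 fold change and its standard error (x axis) of 24 of the 27 ribosomal protein genes in the 3 comparisons, as deposited (grey) and after median-ratio scaling (green), filled where the adjusted p was under 0.05. In Tibetan minus Large White the genes run from -1.84 (RPL26L1) to -0.0067 (RPS27L) as deposited and lie on both sides of 0 after scaling; Wujin minus Large White is close to 0 for nearly all, apart from RPS21 and RPS4X.

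In the small subunit, 13 of 14 members (92.9%) were called lower in Tibetan than in Large White libraries as deposited, against 63.2% of all entries. After median-ratio scaling 3 (21.4%) were called lower and 0 higher, against 33% and 32.4% of all entries. RPS12 stood at 1431, 1866 and 1026 FPKM in Tibetan libraries, against 4991, 5025 and 4837 FPKM in Large White libraries. The groups lay far apart, and the Large White values were close together. Its log2 fold change was -1.82 ± 0.21 (SE, adjusted p = 4.48e-05) as deposited and -0.84 ± 0.27 (adjusted p = 0.0215) after scaling. The scaled call was lost without either of Tibetan 1 and Tibetan 3 or either of Large White 1 and Large White 2, with adjusted p-values of up to 0.0685. RPS4X, the small subunit protein encoded on the X chromosome, stood at 275, 269 and 228 FPKM in Tibetan libraries, against 846, 863 and 798 FPKM in Large White libraries. These groups did not overlap under either scaling. The log2 fold change was -1.70 ± 0.11 (adjusted p = 1.55e-06) as deposited and -0.72 ± 0.15 (adjusted p = 0.00202) after scaling, and the second stayed under an adjusted p of 0.0114 whichever library was left out. RPS3A, another small subunit protein, stood at 220.2, 299.9 and 198 FPKM in Tibetan libraries, against 742, 765 and 696 FPKM in Large White libraries. Its fold change was -1.63 ± 0.17 as deposited and -0.66 ± 0.22 after scaling (adjusted p = 0.0275), and the scaled call was lost without either of Tibetan 1 and Tibetan 3 or either of Large White 1 and Large White 2.

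RPS3, RPS9 and RPS23 were called lower as deposited and not after scaling. RPS3 averaged 956 ± 148 FPKM in Tibetan and 2113 ± 195 FPKM in Large White libraries, and RPS9, also near the entry of the channel, 447 ± 64.7 against 1006 ± 71.5 FPKM. Their scaled log2 fold changes were -0.17 ± 0.20 and -0.20 ± 0.17. RPS23, which reaches into the decoding centre, stood at 106, 142 and 80.4 FPKM in Tibetan libraries, against 277, 242 and 251 FPKM in Large White libraries, with -0.28 ± 0.22 after scaling. RPS16 was called lower as deposited, with a fold change of -0.84, and had a positive value after scaling (0.13) that was not called. RPS13 and RPS18 were called lower as deposited, with -1.63 and -1.49, and had -0.66 and -0.51 after scaling, not called.

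RPS28 and RPS21 stood apart in the small subunit. RPS28 had 2870, 4388 and 2455 FPKM in Tibetan libraries, against 4797, 4339 and 4168 FPKM in Large White libraries. Tibetan 2 lay inside the Large White range and both other Tibetan libraries below it. The deposited call (-0.50 ± 0.20, adjusted p = 0.0495) was lost without any library other than Tibetan 2, and after scaling the value was 0.48 ± 0.25, not called. RPS21 was listed at 3.02, 7.27 and 0 FPKM in Tibetan 1, 2 and 3, at 0, 0 and 5.61 FPKM among Wujin libraries, and at 14.0, 6.40 and 5.97 FPKM among Large White libraries. It is listed at 0 in 3 libraries although ribosomes of every cell use its protein, and no mean is given.

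In the large subunit, all 7 members outside the stalk were called lower in Tibetan than in Large White libraries as deposited, against 63.2% of all entries. After scaling 1 (14.3%) was called lower and 1 (14.3%) higher, against 33% and 32.4% of all entries. RPL5 and RPL11 form a particle with 5S ribosomal RNA that is built into the large subunit and that can also bind MDM2, a ubiquitin ligase. RPL5 stood at 404, 431 and 349 FPKM in Tibetan libraries, against 1146, 1039 and 1042 FPKM in Large White libraries. RPL11 stood at 581, 687 and 427 FPKM in Tibetan libraries, against 1687, 1550 and 1399 FPKM in Large White libraries. Both pairs of groups were well separated as deposited, with fold changes of -1.45 ± 0.12 and -1.47 ± 0.18. After scaling RPL5 was called (-0.47 ± 0.16, adjusted p = 0.0239), though not without either of Tibetan 1 and Tibetan 3 or either of Large White 1 and Large White 2, and RPL11 was not (-0.50 ± 0.23, adjusted p = 0.0898). The ratio of RPL5 to RPL11 inside a library, which dividing the library by a factor leaves as it is, was 0.695, 0.628 and 0.818 in Tibetan libraries, 0.525, 0.679 and 0.588 in Wujin libraries and 0.679, 0.670 and 0.745 in Large White libraries, and the breeds overlapped. MDM2 averaged 9.27 ± 2.41 FPKM in Tibetan and 6.95 ± 0.947 FPKM in Large White libraries, not called as deposited (0.35 ± 0.18) and called higher after scaling (1.22 ± 0.17).

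RPL14 stood at 249, 318 and 149 FPKM in Tibetan libraries, against 714, 697 and 727 FPKM in Large White libraries. The Tibetan values were the most scattered of the large subunit, with a coefficient of variation of 35.6%, against 2.12% in Large White libraries, and the fold change of -1.64 ± 0.25 became -0.67 ± 0.29 after scaling, not called. RPL4, which lines the exit tunnel of the new protein, was among the steadiest, at 477 ± 27.1 FPKM in Tibetan and 1165 ± 35.9 FPKM in Large White libraries. Its fold change was -1.29 ± 0.11 as deposited and -0.31 ± 0.15 after scaling, not called. RPL29 averaged 284 ± 27.2 FPKM in Tibetan and 675 ± 73.2 FPKM in Large White libraries, and its values were -1.25 ± 0.14 and -0.27 ± 0.18.

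RPL27 and RPL38 had the smallest deposited fold changes of these 7. RPL27 stood at 389, 466 and 317 FPKM in Tibetan libraries, against 546, 468 and 500 FPKM in Large White libraries. The highest Tibetan value was just under the lowest Large White value. It was called lower as deposited (-0.38 ± 0.16, adjusted p = 0.0472), a call kept only where Tibetan 2 was the library left out, and called higher after scaling (0.59 ± 0.19, adjusted p = 0.0199), a call lost without Large White 2 or Large White 3. Its direction therefore rested on the scaling. RPL38, known in mice for its part in translating Hox messengers during patterning of the skeleton, averaged 632 ± 192 FPKM in Tibetan and 1027 ± 105.2 FPKM in Large White libraries. It was called lower as deposited (-0.74 ± 0.21) and had 0.24 ± 0.26 after scaling, not called.

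The stalk proteins RPLP1 and RPLP2 form pairs on the large subunit that recruit the elongation factors. RPLP1 stood at 1419, 1437 and 1284 FPKM in Tibetan libraries, against 1611, 1459 and 1313 FPKM in Large White libraries, and the groups overlapped. It was the only large subunit gene not called as deposited (-0.079 ± 0.13, adjusted p = 0.582), and it was called higher after scaling (0.90 ± 0.17, adjusted p = 0.00134), with an adjusted p of at most 0.00833 whichever library was left out. RPLP2 stood at 1026, 1526 and 791 FPKM in Tibetan libraries, against 1806, 1592 and 1540.2 FPKM in Large White libraries. Tibetan 2 almost reached the Large White range. Its fold change was -0.61 ± 0.22 (adjusted p = 0.0273) as deposited, lost without either of Tibetan 1 and Tibetan 3 or either of Large White 1 and Large White 2, and 0.36 ± 0.27 after scaling, not called. The ratio of RPLP1 to RPLP2 was 1.38, 0.942 and 1.62 in Tibetan libraries, 0.792, 0.813 and 0.911 in Wujin libraries and 0.892, 0.917 and 0.853 in Large White libraries. All 3 Tibetan ratios were the highest of the 9, and Tibetan 2 was close to the others. This pair and the next were picked after their values were seen and carry no test.

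Ratios between other members differed between breeds as well. The ratio of RPS12 to RPS28 was 0.499, 0.425 and 0.418 in Tibetan libraries, 1.08, 0.808 and 0.828 in Wujin libraries and 1.04, 1.16 and 1.16 in Large White libraries, with no overlap between Tibetan and the others. Set against the median member of its own library, RPS27L lay 1.24 and RPLP1 1.17 log2 units higher in Tibetan than in Large White libraries, RPL27 0.86, RPS28 0.75, RPLP2 0.63 and RPL38 0.50. The same difference was -0.66 for RPL26L1, -0.58 for RPS12, -0.46 for RPS4X, and -0.40 for each of RPL14 and RPS13. RPS4X averaged -0.63 log2 units from the median member in Tibetan, -0.70 in Wujin and -0.17 in Large White libraries. Relative to the median member, though not in FPKM, its Tibetan and Wujin values were thus alike. For RPS3, RPS9, RPL4, RPL29 and RPS23 the Tibetan minus Large White difference of this ratio was at most 0.09 in size. These differences describe the libraries and were not tested.

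**Figure D3:**
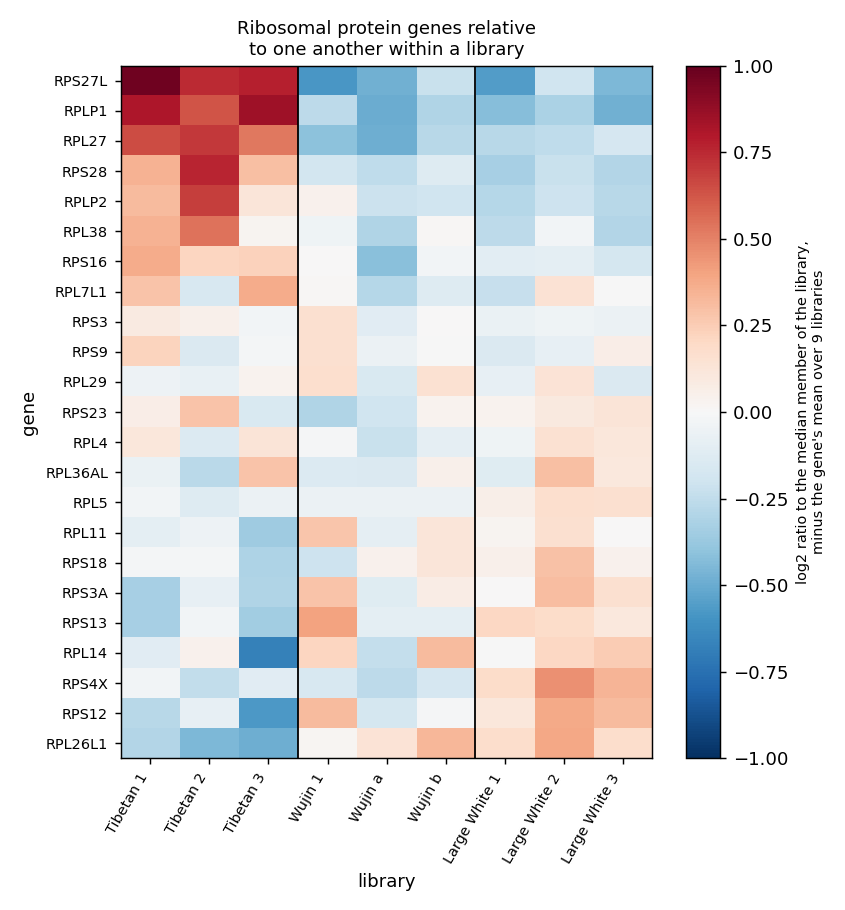
Log2 ratio of ribosomal protein genes (rows, RPS21 left out) to the median member of each library (columns), with each gene's mean over the 9 libraries taken off. RPS27L, RPLP1 and RPL27 at the top are above their own mean in all 3 Tibetan libraries, and Wujin and Large White libraries are paler for them. RPL26L1 and RPS12 at the bottom are below their mean in all 3 Tibetan libraries. For RPS12, Tibetan 2 is close to the mean and the Large White libraries are above it.

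The paralogues were low in every library and did not move as one. RPL26L1, close to RPL26, stood at 16.0, 16.4 and 12.3 FPKM in Tibetan libraries, against 59.1, 57.5 and 49.9 FPKM in Large White libraries. It had the lowest fold change of the 27 genes under both scalings, -1.84 ± 0.15 (adjusted p = 5.30e-06) as deposited and -0.90 ± 0.15 (adjusted p = 0.000715) after scaling. RPL36AL, the autosomal relative of RPL36A, stood at 4.95, 4.96 and 5.57 FPKM in Tibetan libraries, against 12.8, 14.4 and 12.6 FPKM in Large White libraries. The groups were well apart, and it was called lower under both scalings (-1.21 ± 0.11 and -0.34 ± 0.11), the scaled call being lost without Tibetan 1, Large White 1 or Large White 2. RPL7L1, a relative of RPL7 that acts in ribosome assembly, stood at 6.19, 5.23 and 5.79 FPKM in Tibetan libraries, against 11.6, 12.6 and 11.4 FPKM in Large White libraries (-0.93 ± 0.11), and was not called after scaling (-0.064 ± 0.13). RPS27L, a relative of RPS27, stood at 8.44, 8.33 and 6.53 FPKM in Tibetan libraries, against 7.80, 8.40 and 7.13 FPKM in Large White libraries. The groups overlapped throughout. Its fold change was -0.0067 ± 0.14 as deposited and 0.86 ± 0.14 (adjusted p = 0.000454) after scaling. At such levels log2(FPKM + 1) understates a change.

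Replicates of a breed differed in a common way. As deposited, Tibetan 2 was the highest Tibetan library for 21 of the 27 genes and Tibetan 3 the lowest for 25, and after scaling the counts were 25 and 25. The median coefficient of variation of a member was 17.1% among Tibetan, 9.33% among Wujin and 8.56% among Large White libraries as deposited, and 23.0%, 16.3% and 10.6% after scaling. The 10 highest entries took 32.6% of Tibetan 2 and 40.8% of Tibetan 3, while the 2 libraries were at like relative depth (1.01 each). The part of these shares in the order of the Tibetan libraries was not tested.

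In the comparison of Wujin with Large White, 1 of the 27 genes was called lower and 0 higher as deposited, with 5 lower and 0 higher at an unadjusted p under 0.05. Among all entries, 4.85% were called lower and 1.67% higher, so the members' share of 3.70% lay close to that of the table. The median log2 fold change was -0.20 for the members and -0.20 for all entries. The gene called was RPS4X, at 514, 518 and 541 FPKM in Wujin libraries, against 846, 863 and 798 FPKM in Large White libraries. The groups were far apart and each was tight, with a fold change of -0.67 ± 0.11 (adjusted p = 0.0214). The call was lost without Wujin a, Large White 1, 2 or 3, with adjusted p-values of up to 0.102, and after scaling the value was -0.43 ± 0.15 (adjusted p = 0.117), with the groups still apart. Without Wujin b 2 members were called lower, RPS4X and RPS21, and RPS21 was then listed at 0 in the remaining Wujin libraries. After scaling limma called 0 members lower and 0 higher, with 1 lower and 0 higher at an unadjusted p under 0.05, and the member median was 0.036. All entries were at 1.27% lower and 1.86% higher. RPS12 stood at 4420, 3378 and 3718 FPKM in Wujin libraries, all below the Large White values, and was not called (-0.38 ± 0.21, adjusted p = 0.240). RPS23 stood at 169, 194 and 226 FPKM in Wujin libraries, also all below Large White, and was not called (-0.39 ± 0.20). RPLP2, at 1750.1, 1566 and 1570.2 FPKM in Wujin libraries, overlapped Large White and had a fold change near 0 (-0.013 ± 0.22). RPS28, at 4105, 4181 and 4488 FPKM in Wujin libraries, overlapped it too. The paralogues RPL36AL, with 9.70, 10.4 and 11.7 FPKM, and RPL7L1, with 10.6, 9.21 and 10.1 FPKM in Wujin libraries, lay below all Large White values without being called. In 10 of the 27 genes every Wujin value lay below every Large White value, which held for 35.3% of all entries.

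In the comparison of Tibetan with Wujin, 22 members were called lower and 0 higher as deposited, and 0 were higher at an unadjusted p under 0.05. All entries were at 53.9% lower and 13.8% higher. This comparison shares the Tibetan libraries with the first one and the Wujin libraries with the second, so its values are not a separate replicate. The median log2 fold change was -0.95 for the members and -0.55 for all entries. RPL26L1 stood at 16.0, 16.4 and 12.3 FPKM in Tibetan libraries, against 40.8, 47.6 and 53.5 FPKM in Wujin libraries (-1.60 ± 0.15, adjusted p = 1.59e-05). RPL14 stood at 644, 508 and 728 FPKM and RPS3A at 693, 561 and 638 FPKM in Wujin libraries, all above the Tibetan values. RPS12 had -1.45 ± 0.21, RPL14 -1.44 ± 0.25 and RPS3A -1.41 ± 0.17. The 5 genes not called were RPLP1, RPL27, RPS27L, RPS28 and RPS21. RPL27 stood at 389, 466 and 317 FPKM in Tibetan libraries, against 386, 391 and 446 FPKM in Wujin libraries, which overlapped. RPLP1 stood at 1387, 1274 and 1431 FPKM and RPS27L at 5.92, 6.84 and 8.09 FPKM in Wujin libraries, and both overlapped the Tibetan values. After scaling 4 members were called lower (RPL26L1, RPS12, RPS3A and RPL11) and 3 higher (RPLP1, RPS27L and RPL27), against 30.4% of all entries lower and 30.9% higher. The 4 lower calls became 12 without Tibetan 2, 1 without Tibetan 1, Tibetan 3 or Wujin 1, and 2 without Wujin b or any single Large White library. RPL26L1 and the 3 higher genes kept their calls whichever library was left out. RPS4X, called lower in Wujin than in Large White libraries, was also lower in Tibetan than in Wujin libraries (-1.03 ± 0.11 for Tibetan minus Wujin as deposited, and -0.29 ± 0.15 after scaling, not called).

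Over the 3 breeds at once, limma's F test called 22 of the 27 genes as deposited, against 77.6% of all entries, and 9 after scaling, against 67.6%.

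Other genes that build or serve the ribosome were set beside the members, and the counts of each list stand against the shares of all entries given above for the same comparison and scaling. Of 12 measured TOP genes other than the members, 10 were called lower and 1 higher in Tibetan minus Large White as deposited, and 3 lower and 3 higher after scaling. RACK1, a scaffold on the small subunit, averaged 778 ± 104 FPKM in Tibetan and 1723 ± 19.9 FPKM in Large White libraries and followed the pattern of most members, called lower as deposited (-1.15 ± 0.14) but not after scaling (-0.18 ± 0.20). FAU, whose product is cut to yield a small subunit protein, had -0.66 ± 0.11 and 0.20 ± 0.14. The genes called lower under both scalings were PABPC1, which binds poly(A) tails, HNRNPA1, a splicing factor, and NAP1L1, a histone chaperone. PABPC1 averaged 54.9 ± 10.7 FPKM in Tibetan and 236 ± 6.03 FPKM in Large White libraries (-2.10 ± 0.15 and -1.13 ± 0.13). EIF4A2, a helicase of initiation, averaged 243 ± 20.5 FPKM in Tibetan and 181 ± 5.33 FPKM in Large White libraries and was called higher under both (0.42 ± 0.12 and 1.40 ± 0.10).

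Of 49 tested factors of ribosome biogenesis, 34 (69.4%) were called lower and 1 (2.04%) higher in Tibetan minus Large White as deposited, against 63.2% and 13% of all entries. After scaling 9 (18.4%) were lower and 21 (42.9%) higher, against 33% and 32.4% of all entries. The list medians were -0.54 and 0.26. BYSL, which matures the small subunit, averaged 34.9 ± 7.81 FPKM in Tibetan and 263 ± 36.7 FPKM in Large White libraries and was called lower under both scalings (-2.90 ± 0.29 and -1.93 ± 0.24). NPM1, the nucleolar protein nucleophosmin, averaged 118 ± 23.1 FPKM in Tibetan, 249.9 ± 31.6 FPKM in Wujin and 396 ± 2.72 FPKM in Large White libraries (-1.76 ± 0.16 and -0.79 ± 0.15 for Tibetan minus Large White). NCL, nucleolin, was lower under both as well (-1.39 ± 0.094 and -0.44 ± 0.12). SBDS, which frees new large subunits of EIF6, averaged 22.5 ± 3.52 FPKM in Tibetan and 18.4 ± 0.774 FPKM in Large White libraries and was called higher after scaling alone (1.20 ± 0.11), whereas EIF6 was called lower as deposited alone (-1.25 ± 0.13). Among 14 subunits and factors of RNA polymerase I, which transcribes ribosomal RNA, 10 were lower and 1 higher as deposited, and 2 lower and 5 higher after scaling. UBTF, its upstream binding factor, had -1.05 ± 0.13 and -0.17 ± 0.12.

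The growth control list held 15 tested genes. As deposited 6 (40%) were lower and 1 (6.67%) higher in Tibetan minus Large White, against 63.2% and 13% of all entries. After scaling 2 (13.3%) were lower and 9 (60%) higher, against 33% and 32.4% of all entries. EIF4EBP1, the repressor of initiation that mTOR inactivates, averaged 296 ± 67.8 FPKM in Tibetan and 151 ± 20.1 FPKM in Large White libraries and was called higher under both (0.95 ± 0.18 and 1.92 ± 0.22). MTOR was not called as deposited (-0.10 ± 0.17) and was higher after scaling (0.74 ± 0.12). MYC, which activates ribosomal genes, was lower as deposited (-0.83 ± 0.27) and not called after scaling (0.095 ± 0.24). The mitochondrial ribosomal proteins, which serve the separate ribosome of that organelle, ran differently. Of 44 genes 7 were lower and 12 higher as deposited, and 1 lower and 37 higher after scaling, with medians of 0.093 and 0.95, against -1.21 and -0.27 for the 27 cytosolic genes. The difference between these lists was not tested.

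**Figure D4:**
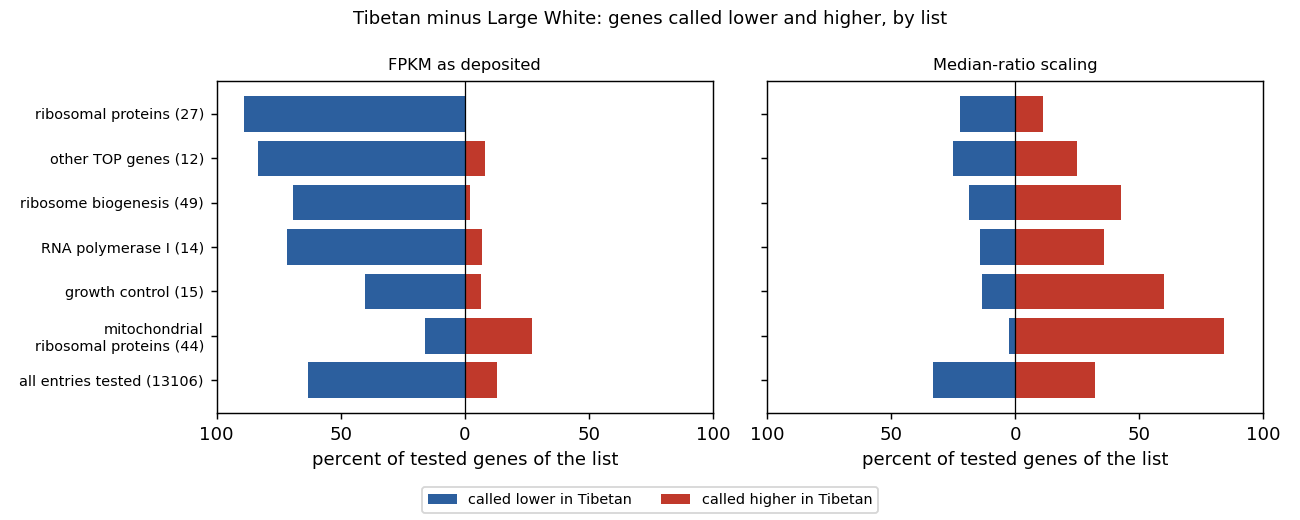
Percent of tested genes called lower (left of 0) and higher (right of 0) in Tibetan minus Large White for 6 lists and for all entries, with the number tested in brackets. The left panel is as deposited and the right panel after median-ratio scaling; cytosolic ribosomal proteins are at 88.9% lower and 0% higher on the left, and 22.2% lower and 11.1% higher on the right, where mitochondrial ribosomal proteins are at 84.1% higher.

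In Wujin minus Large White few genes of these lists were called, and no list was tested against the table, where 4.85% were lower as deposited. At that scaling 3 of 49 biogenesis factors, 2 of 14 polymerase I genes and 1 of 12 other TOP genes were called lower and none of the lists had a gene called higher. NPM1 had -0.67 ± 0.16 (adjusted p = 0.0435), DDX21, a nucleolar helicase, -0.70 ± 0.16 (adjusted p = 0.0393), and NAP1L1 -0.40 ± 0.10 (adjusted p = 0.0482). After scaling 1 gene of all these lists was called, POLR1B, a core subunit of polymerase I (-0.48 ± 0.10, adjusted p = 0.0404). In Tibetan minus Wujin, 22 biogenesis factors were lower and 3 higher as deposited, and 6 lower and 18 higher after scaling. The mitochondrial ribosomal proteins had 5 lower and 14 higher, and 0 lower and 35 higher.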

How the data were processed

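Per the labels' protocols, RNA came from frozen muscle by Trizol and libraries were made with a TruSeq RNA kit. Per the file headers, the authors deposited 1 table of FPKM per gene and library. The submitters' processing notes name TopHat, with no version. For the quantifier, genome build and annotation, the answer is not given in the sources used here. Symbols were found by gene identifier for 11179 of 19643 entries (56.91%). The members of the gene group, the lists and the tests were chosen with earlier results of these data known. The members named with values were those with the 4 highest and 4 lowest fold changes in each comparison, the stalk proteins, the paralogues and RPS4X, and other genes were picked with their values known. Single values of some genes, 3 members among them, are not reported here, though counts and medians include them. A test of paralogue ratios was planned, but of 8 pairs 0 had both genes matched.

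The 13106 entries whose mean over the 9 libraries reached 1 FPKM were fitted on log2(FPKM + 1) with limma 3.58.1 in R 4.3.3 (breed means over all 9 libraries, moderated with a trend, Benjamini-Hochberg adjustment over all entries, threshold 0.05), and tested on simulated data first. Fold changes are on this scale and understate those of low genes. Median-ratio scaling was applied before the logarithm with the same entries kept. Alternatives were other pseudocounts, filters and scalings, fits of 2 breeds, a replicate block and leaving out each library. The last, under median-ratio scaling, was added after seeing the data. The 2 Wujin columns that share a header were taken as replicates without a number. The number of fragments is unknown, so no counting interval is given.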

Additional observations from a re-analysis of the deposited data

How the results depend on the processing

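Pseudocounts of 0.1 and 5, no filter or a filter of 5 FPKM, and fits of 2 breeds left the counts of called members within 1.5 times and the medians within the spread between libraries. Scaling changed most. In Tibetan minus Large White, median-ratio scaling gave 6 members lower, 3 higher and a median of -0.27. Quantile normalization gave 21 lower, 1 higher and a median of -0.96. Equal totals without the 50 highest entries gave 20 lower, 0 higher and a median of -0.98. In Wujin minus Large White, median-ratio scaling gave 0 lower and a median of 0.036. In Tibetan minus Wujin it gave 4 lower, 3 higher and a median of -0.26. There quantile normalization gave 21 lower and 1 higher, and equal totals without the 50 highest entries 21 lower and 0 higher. The cause was not tested.

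Members' reported values that turned to higher under median-ratio scaling in Tibetan minus Large White were RPS27L 0.86 (0.77 under quantile normalization), RPLP1 0.90, RPL27 0.59, RPS28 0.48, RPLP2 0.36, RPL38 0.24 and RPS16 0.13. Of the other genes named, MTOR 0.74, FAU 0.20 and MYC 0.095 turned as well. In Tibetan minus Wujin they were RPL27 0.66, RPLP2 0.14, RPL38 0.064 and RPS16 0.064. Among the members reported by name, a further 5, 6 and 36 values that were not called changed sign in Tibetan minus Large White, Tibetan minus Wujin and Wujin minus Large White.

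Leaving out each library in turn gave 21 to 24 members lower and medians of -1.30 to -1.06 in Tibetan minus Large White, 0 to 2 lower in Wujin minus Large White, and 20 to 23 lower in Tibetan minus Wujin. Under median-ratio scaling the lower counts were 2 to 11 in Tibetan minus Large White and 1 to 12 in Tibetan minus Wujin. Libraries with the same number did not deviate together (correlations of 0.013, -0.0226 and -0.076), so the numbers were not taken as pairs. A replicate block over Tibetan and Large White gave 21 members lower and 0 higher and a median of -1.21, with RPL27, RPLP2 and RPS28 no longer called. No paired analysis was possible with Wujin because 2 of its columns carry no number of their own. Paralogue ratios were not run, since 0 of the 8 planned pairs had both genes matched.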
